A study of Mus musculus with 2 samples.

Results

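The retinoic acid genes of the mouse heart at E11.5 (days of embryonic development) are described here across cell classes and between 2 genotypes. They are 9 genes of the 22401 features in the count tables, taken by name for their roles: the synthesis enzyme Aldh1a2, the carrier Rbp4 and its receptor Stra6, the intracellular binding proteins Crabp1 and Crabp2, the degrading enzyme Cyp26b1, and the nuclear receptors Rara, Rarb and Rarg. All 9 were present in both tables. Whole hearts gave 2 single-cell libraries, 1 per genotype. The control embryos were Hand2fx/+ and R26RmTmG/wt, so they carried a floxed Hand2 allele themselves but no Cre. The H2CKO embryos were Nfatc1Cre/wt, Hand2fx/fx and R26RmTmG/wt. The transcription factor gene Hand2 is deleted where Nfatc1-Cre is active, which is the endocardium, the inner cell layer of the heart. The mTmG reporter switches to membrane GFP in Cre-expressing cells and their descendants. The labels do not say how many embryos, or of which sex, went into a library. The comparison asks where retinoid genes stood across the heart when Hand2 was deleted in the endocardium.

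Retinoic acid is a signal made from vitamin A in the cells that hold a retinaldehyde dehydrogenase, and in the embryonic heart Aldh1a2 in the epicardium, the outer mesothelial layer, is known as the main enzyme. Retinol travels in plasma bound to Rbp4 and can enter cells through Stra6. Inside cells retinoic acid is bound by Crabp1 and Crabp2, is broken down by enzymes of the Cyp26 family, and otherwise acts through the RAR receptors, which bind DNA with RXR partners. Source, sink and responding cells can therefore be different cell types, and the levels below are ordered by these roles.

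The control table held 14114 barcodes with 195825720 UMIs (unique molecular identifiers, counts of captured transcripts), and the H2CKO table held 13885 barcodes with 201477256 UMIs. After filters on genes, mitochondrial UMIs and doublet scores, 9251 control and 11413 H2CKO cells were kept, with median depths of 16439 and 13377 UMIs. Clustering without the retinoid genes gave 13 clusters. From fixed markers they were named epicardial-like (867 control and 317 H2CKO cells), endothelial-like (407 and 745), mesenchymal-like (1653 and 1070), cardiomyocyte-like (3122 and 3750), white blood cell-like (80 and 110) and erythroid-like (2712 and 4925). One cluster with all 12 cardiomyocyte markers, but led by Rspo3, Masp1, Sema3c, Bmp4 and Isl1, stays unnamed and is called unnamed 11 (410 and 496 cells). Hand2 itself stood at 221 CPM (CPM scales a gene's UMIs to the UMI total of its class) in control and 10.98 CPM in H2CKO endothelial-like cells, at 177 and 47.3 CPM in mesenchymal-like cells, and at 124 and 114 CPM in epicardial-like cells. GFP stood at 1192 CPM in endothelial-like and 803 CPM in mesenchymal-like H2CKO cells, against at most 16.6 CPM in any control class. The erythroid clusters were nearly all from 1 library each, and 29 of the kept barcodes occurred in both libraries. A shallow cluster within the cardiomyocyte-like class, with a median of 1468.5 UMIs, held 1209 control and 217 H2CKO cells.

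With 1 library per genotype no difference has a replicate check, and no test or p-value is given. Intervals are 95% exact intervals (Poisson for a level, conditional for a ratio, binomial for a share) and cover counting error only. Differences are written as log2 of (CPM + 5) in H2CKO over (CPM + 5) in the control, for genes with at least 20 CPM and 20 UMIs in the higher library of a class. A gene is past 2-fold at a log2 difference of at least 1 in size.

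A pair of promoters shows the DNA through which the pathway is known to act on its own genes. RAR and RXR bind direct repeats of a short half-site, and such a repeat is known from the promoter of Rarb and from that of Cyp26a1, a relative of Cyp26b1. Both are printed 5′ to 3′ on the gene's strand from RefSeq (GRCm38.p6), up to the annotated start base, with the repeat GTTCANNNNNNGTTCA in capitals. The Rarb stretch lies at chr14:16575476-16575726 on the minus strand, inside the gene, with the repeat starting 52 bases before the start site. The Cyp26a1 stretch lies at chr19:37697756-37697808 on the plus strand, with the repeat on the opposite strand, starting 32 bases before the start site.
Rarb: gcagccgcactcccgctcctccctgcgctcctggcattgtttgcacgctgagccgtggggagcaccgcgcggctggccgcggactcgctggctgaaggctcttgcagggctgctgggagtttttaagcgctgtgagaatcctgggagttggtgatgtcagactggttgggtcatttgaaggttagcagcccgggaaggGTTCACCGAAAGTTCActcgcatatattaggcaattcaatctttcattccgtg
Cyp26a1: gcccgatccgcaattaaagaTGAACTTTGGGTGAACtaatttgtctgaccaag
This repeat was found in 25 of 32851 promoter windows of the mouse (0.0761%), each from 250 bases before to 50 bases after a start, both strands searched. Among the 16 windows of the 8 retinoid genes with an entry, only that of Rarb held it. A repeat of another half-site, AGGTCANNNNNAGGTCA, was in 3 windows (0.00913%), none of them of the 8 genes with an entry. Libraries of the 3′ end cannot tell which start site a Rarb transcript used.

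Aldh1a2 (ENSMUSG00000013584, chromosome 9, 71215789 to 71296243, plus strand, GRCm38), the enzyme that makes retinoic acid from retinaldehyde, was a gene of the epicardial-like class in both libraries. In the control it stood at 269 CPM there (interval 260.2 to 277, 3844 UMIs), and 84.8% of its 4532 UMIs in kept cells were in that class (83.7 to 85.8%). In H2CKO it stood at 124 CPM (112 to 136, 441 UMIs), and 93.0% of its 474 UMIs were in the class (90.4 to 95.2%). The level in epicardial-like cells was thus 2.17-fold lower in H2CKO (1.97 to 2.41), a log2 difference of −1.09. Of the 3 retinoid genes at 20 CPM or more in this class, Aldh1a2 alone was past 2-fold, where 4.87% of all 6308 genes at this level were past 2-fold lower. Genes past 2-fold higher were 0.46%, and the median gene of the class lay at −0.21.

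**Figure D1:**
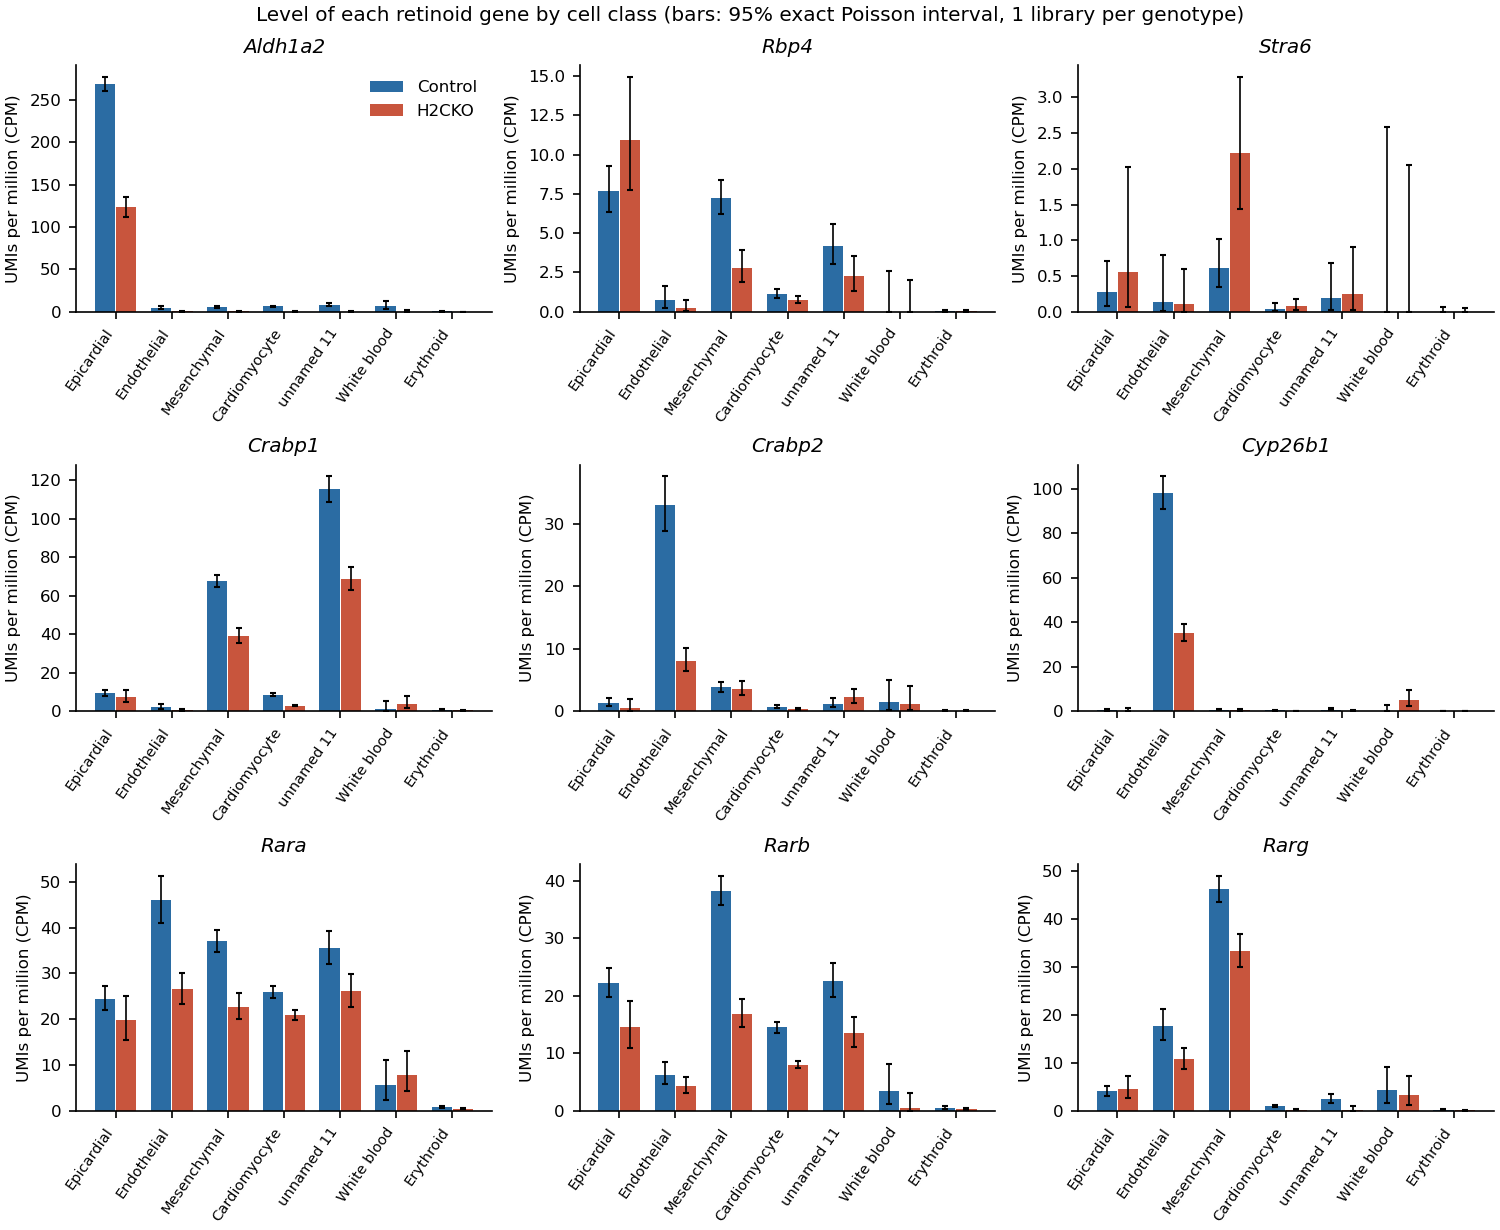
Level of each of the 9 genes (CPM, linear axis from 0, different scales) in 7 cell classes, blue for control and red for H2CKO, with 95% exact Poisson intervals for counting error. Aldh1a2 stands at 269 and 124 CPM in epicardial-like cells and below 9 CPM elsewhere, Cyp26b1 at 98.0 and 35.4 CPM in endothelial-like cells, and Rara is spread over 5 classes.

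Per cell, Aldh1a2 was detected in 82.4% of control and 52.1% of H2CKO epicardial-like cells, whose median depths were 13886 and 10302 UMIs. With every cell thinned to 5000 UMIs the shares were 64.2% of 846 cells (60.9 to 67.4%) and 38.3% of 287 cells (32.7 to 44.2%). Erythroid-like cells, which are not expected to make the enzyme, gave thinned shares of 0.189% and 0.0632%, the level that free RNA can give. The class was also a smaller part of the H2CKO library, 2.78% of kept cells against 9.37%. Over whole libraries Aldh1a2 therefore stood at 26.7 CPM in control and 2.71 CPM in H2CKO cells. With 1 library per genotype, fewer epicardial cells in the hearts and fewer recovered in dissociation cannot be told apart.

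The difference was present in every sub-cluster of the class, with unequal size. In sub-cluster 1, led by Adam33, Krt7 and Krt18, Aldh1a2 stood at 335 CPM in control and 207 CPM in H2CKO. In the proliferating sub-cluster 3, led by Aspm and Nusap1, it stood at 322 and 181 CPM. In sub-cluster 2, led by Postn, Lmcd1 and Tgfbi, it was lowest in both, at 102 and 20.4 CPM, 5.02-fold lower in H2CKO (3.34 to 7.86). The epicardial gene Upk3b, chosen after its values were seen, was also 3.61-fold lower in sub-cluster 2 (328 and 90.6 CPM), against 1.33-fold in sub-cluster 1 and 1.18-fold in sub-cluster 3. Its part in the Aldh1a2 value was not tested. Postn and Tgfbi are matrix genes known from epicardial cells that turn mesenchymal, and both were also among the leading genes of the mesenchymal-like class. Sub-cluster 2 held 23.2% of control and 34.1% of H2CKO epicardial-like cells. With the sub-clusters weighted alike in both libraries the log2 difference of Aldh1a2 was −0.87. The sum of 10 epicardial markers was also lower in H2CKO, 2003 against 2567 CPM, with none of the 10 at 0 in either library. Per 100 UMIs of those markers there were 10.5 Aldh1a2 UMIs in control (10.1 to 10.8) and 6.17 in H2CKO (5.59 to 6.79).

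Aldh1a2 remained lower in H2CKO epicardial-like cells in all 11 alternative settings tried, from −1.85 to −0.52, and past 2-fold in 4 of them. With the stricter cell filter it was −0.67, and with only the cells the authors embedded −0.68. Against genes of like span, which for Aldh1a2 is 80.4 kb, the difference was −0.52.

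Outside the epicardial-like class, control cells held 688 Aldh1a2 UMIs and H2CKO cells 33. The control levels were 6.496 CPM in cardiomyocyte-like, 5.77 in mesenchymal-like, 4.71 in endothelial-like and 8.50 CPM in unnamed 11 cells, and the H2CKO levels were 0.217, 0.267, 0.533 and 0.126 CPM. These UMIs went with Upk3b, an epicardial surface gene chosen for this check after its values were seen. Of the 272 control cells outside the class with an Aldh1a2 UMI, 173 (63.6%) also had one of Upk3b, against 5.99% of all 8384 control cells outside it. In those 173 cells were 579 of the 688 UMIs. In H2CKO 10 of 30 such cells had Upk3b, against 1.01% of 11096. In cardiomyocyte-like cells without Upk3b the Aldh1a2 level was 1.25 CPM in control (0.962 to 1.59) and 0.138 CPM in H2CKO (0.0661 to 0.254). In erythroid-like cells without Upk3b it was 0.362 and 0.119 CPM. The control cardiomyocyte-like cells with Aldh1a2 had a median depth of 34950 UMIs, against 17882 in those without. Mesenchymal-like sub-cluster 6, led by Upk3b and other epicardial genes, held 50 control and 5 H2CKO cells, and 91 of the control Aldh1a2 UMIs of its class. The part of droplets with more than 1 cell in these values was not tested.

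**Figure D2:**
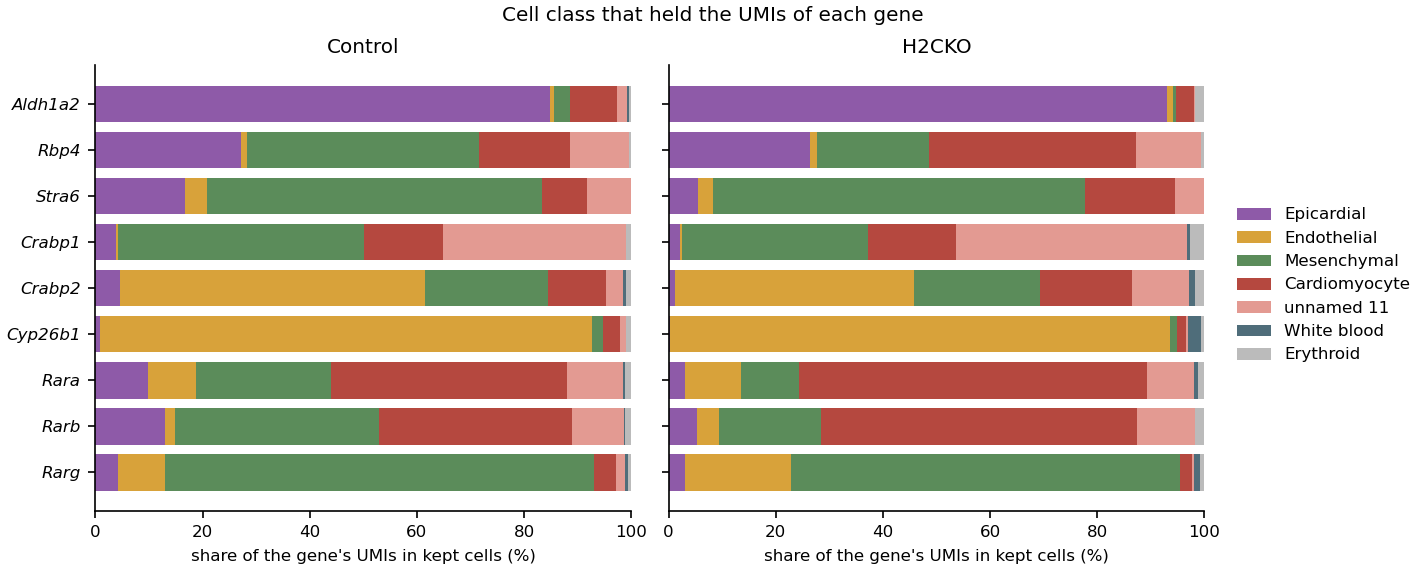
Share of each gene's UMIs in kept cells (percent, bars add to 100) held by each cell class, control on the left and H2CKO on the right. Aldh1a2 UMIs lie mostly in epicardial-like cells (84.8% and 93.0%), Cyp26b1 UMIs in endothelial-like cells (91.8% and 93.3%) and Rarg UMIs in mesenchymal-like cells (80.1% and 72.7%).

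The genes of retinol supply were weakly detected. Rbp4 (chromosome 19, 38116629 to 38125281), the plasma carrier of retinol, which is made chiefly by the liver, had 406 UMIs in control and 148 in H2CKO kept cells and reached 20 CPM in no class. Its highest levels were in epicardial-like cells, at 7.69 CPM (6.32 to 9.26) in control and 10.9 CPM (7.77 to 14.9) in H2CKO, with overlapping intervals. Few cells carried them, since 68 of 867 control and 20 of 317 H2CKO cells of the class had an Rbp4 UMI. In sub-cluster 1 Rbp4 stood at 6.66 CPM in control and 20.9 CPM in H2CKO, a ratio of 3.14 (1.85 to 5.25), and in sub-cluster 2 at 3.78 and 0.817 CPM, from 13 and 1 UMIs, with a ratio interval that includes 1. In mesenchymal-like cells it stood at 7.25 CPM (6.22 to 8.41) in control and 2.76 CPM (1.88 to 3.92) in H2CKO, without overlap. Within the mesenchymal-like class it was highest in sub-clusters 3 and 4, at 12.1 and 14.1 CPM in the control. The 8 hepatocyte markers summed to 32.6 and 26.9 CPM in epicardial-like and 29.6 and 20.7 CPM in mesenchymal-like cells, with 3 to 5 of them at 0, and their part in the Rbp4 values was not tested.

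Stra6 (chromosome 9, 58063788 to 58153996), the membrane receptor that takes up retinol from Rbp4, had 24 UMIs in control and 36 in H2CKO kept cells. Most were in mesenchymal-like cells, 15 UMIs (0.618 CPM, 0.346 to 1.02) in control and 25 (2.23 CPM, 1.44 to 3.29) in H2CKO. The ratio was 3.599 (1.83 to 7.34). Over all 9 genes and 7 classes, only this ratio and that of Cyp26b1 in white blood cell-like cells (0 and 9 UMIs) lay above 1 with an interval that excluded 1. Both levels were far under 20 CPM, and 2.15% of H2CKO cells of the class had a Stra6 UMI. Neither white blood cell-like nor erythroid-like cells had a UMI of it. A count of 0 in the control erythroid-like cells has an interval up to 0.0718 CPM.

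Crabp1 (chromosome 9, 54764748 to 54773110), which binds retinoic acid in the cytoplasm, marked cells of the mesenchymal-like class and of unnamed 11. In mesenchymal-like cells it stood at 67.5 CPM (64.3 to 70.9) in control and 39.2 CPM (35.7 to 43.1) in H2CKO. The log2 difference was −0.71. In unnamed 11 it stood at 115 CPM (109 to 122) and 68.6 CPM (63.0 to 74.7), also −0.71. No retinoid gene was past 2-fold in either class, where 3.28% and 1.89% of all genes at 20 CPM or more were past 2-fold lower, and 0.383% and 0.118% past 2-fold higher. Mesenchymal-like cells held 45.9% of its UMIs in control and 34.7% in H2CKO, and unnamed 11 held 34.2% and 43.0%. Epicardial-like cells had 9.503 and 7.56 CPM, and endothelial-like cells 2.29 and 0.533 CPM.

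Within the mesenchymal-like class the Crabp1 ratio differed widely between sub-clusters. In sub-cluster 1, led by Btn1a1 and Plcb1, it stood at 43.7 CPM (38.4 to 49.6) in control and 3.05 CPM (1.32 to 6.01) in H2CKO, 14.3-fold lower (7.16 to 33.6). In the proliferating sub-cluster 2 it stood at 36.7 and 4.57 CPM, 8.04-fold lower (4.69 to 14.9). In sub-cluster 3, led by Stmn4 and Stmn3, it stood at 115 and 98.3 CPM, and in sub-cluster 4, led by Penk, Inhba and Hand1, at 104 and 92.5 CPM, with ratio intervals that include 1 in both. Of these 4, the sub-clusters with the lowest Crabp1 ratios had the highest GFP. It stood at 1452 and 1478 CPM in H2CKO cells of sub-clusters 1 and 2, and at 74.3 and 75.2 CPM in sub-clusters 3 and 4. Hand2 stood at 16.0 and 10.1 CPM in sub-clusters 1 and 2 of H2CKO and 79.9 and 118 CPM in 3 and 4. Split by cell, the 405 mesenchymal-like H2CKO cells with GFP had 15.9 CPM of Crabp1 and the 665 without GFP 53.5 CPM, a ratio of 0.298 (0.227 to 0.387). Both sets of cells come from the H2CKO library. GFP lay unevenly over the sub-clusters, and Crabp1 was lower in sub-clusters 1 and 2 than in 3 and 4 in the control as well. The part of this in the split by GFP was not tested.

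In unnamed 11 Crabp1 was highest in sub-cluster 3, led by Iigp1, Col3a1, Fbln2 and Sox9, at 292 CPM (268 to 317) in control and 246 CPM (208 to 288) in H2CKO. Sub-cluster 2, led by Sparcl1, Psd and Bmp4, had 152 and 130 CPM, and sub-cluster 4, led by Cck and Gpr22, had 37.3 and 21.9 CPM. Weighting the sub-clusters alike brought the log2 difference from −0.71 to −0.35. Single cells differed widely: of the control cells thinned to 5000 UMIs 28.9% had a Crabp1 UMI, and 1 cell had 42.

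Crabp2 (chromosome 3, 87948666 to 87953376), the binding protein known for handing retinoic acid to nuclear receptors, was highest in endothelial-like cells. Of its UMIs, 56.8% in control and 44.7% in H2CKO lay in that class. In endothelial-like cells it stood at 33.0 CPM (28.9 to 37.5, 231 UMIs) in control and 8.11 CPM (6.39 to 10.1, 76 UMIs) in H2CKO, 4.07-fold lower (3.13 to 5.35). The log2 difference was −1.54. In every other class it was under 4 CPM in both libraries, with mesenchymal-like cells next at 3.87 and 3.56 CPM. The level was concentrated in endothelial-like sub-cluster 1, led by Pthlh, Stmn2 and Wnt4, at 49.7 CPM (43.1 to 56.9) in control and 19.4 CPM (14.7 to 25.03) in H2CKO. With sub-clusters weighted alike the log2 difference was −1.08.

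Cyp26b1 (chromosome 6, 84571414 to 84593908, minus strand), which clears retinoic acid by oxidation, was found mostly in endothelial-like cells. In endothelial-like cells it stood at 98.0 CPM (90.8 to 106, 686 UMIs) in control and 35.4 CPM (31.7 to 39.4, 332 UMIs) in H2CKO, 2.77-fold lower (2.42 to 3.17). The log2 difference was −1.35. Crabp2 and Cyp26b1 were the 2 genes past 2-fold of the 3 at 20 CPM or more in this class, where 7.1% of all 6537 genes were past 2-fold lower, 0.78% past 2-fold higher, and the median gene lay at −0.27. Endothelial-like cells held 91.8% of the control and 93.3% of the H2CKO UMIs of Cyp26b1. Its level in epicardial-like, mesenchymal-like and cardiomyocyte-like cells was at most 0.659 CPM in the control. The sum of 12 endothelial markers was 2899 CPM in control and 3077 CPM in H2CKO, with none at 0.

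**Figure D3:**
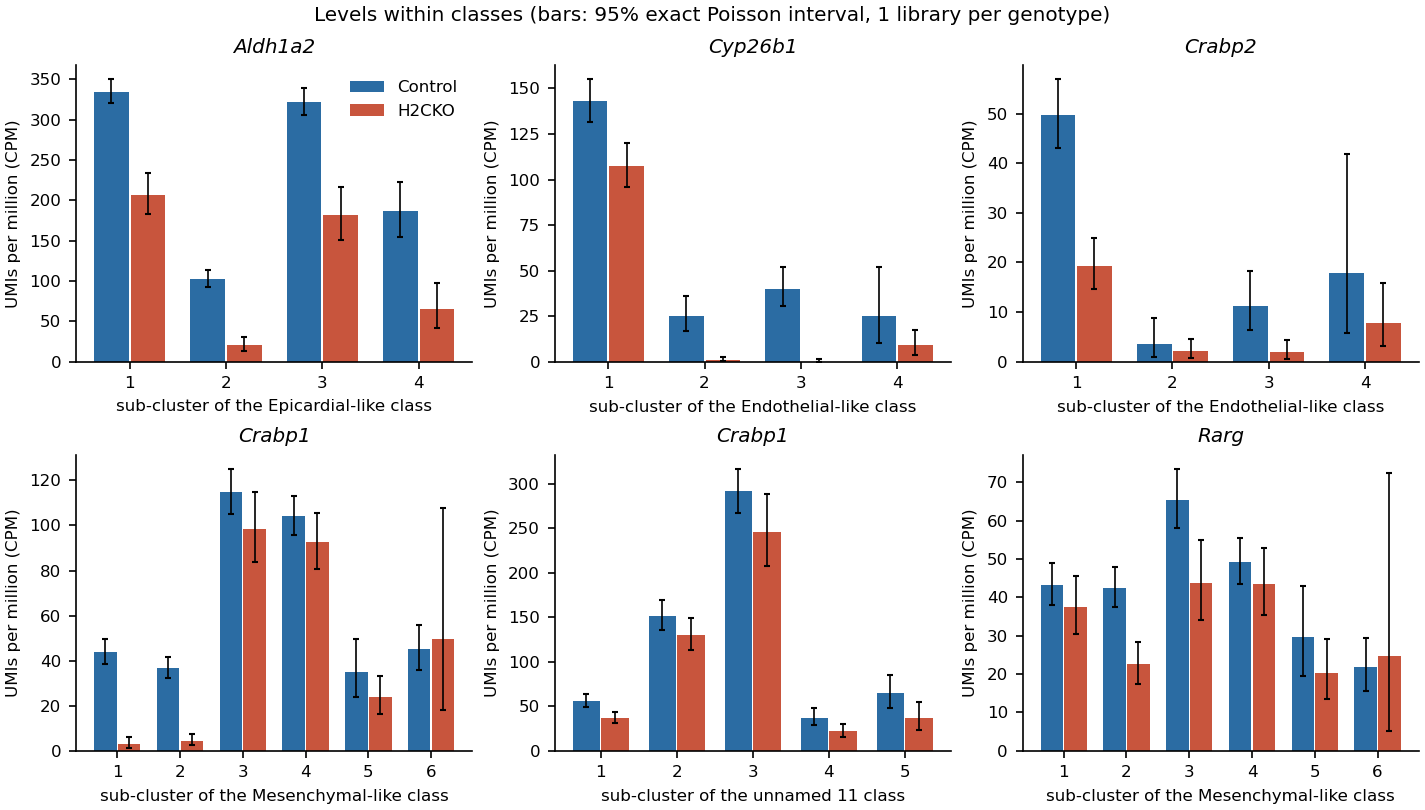
Level (CPM, linear axis from 0) of 5 genes in the sub-clusters of a class, blue for control and red for H2CKO, with 95% exact Poisson intervals. Aldh1a2 is lower in H2CKO in each epicardial-like sub-cluster, Cyp26b1 is at 40.1 and 0 CPM in endothelial-like sub-cluster 3, and Crabp1 is at 43.7 and 3.05 CPM in mesenchymal-like sub-cluster 1 but at 115 and 98.3 CPM in sub-cluster 3.

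The makeup of the endothelial-like class differed between libraries, and Cyp26b1 differed within it too. Sub-cluster 1 made up 56.3% of the class in control and 33.8% in H2CKO, and there Cyp26b1 stood at 143 CPM (132 to 155) and 108 CPM (96.1 to 120). Sub-cluster 2, led by Nr2f2, Lbp and Klhl4, had 25.1 CPM in control and 0.706 CPM in H2CKO, from 29 and 2 UMIs. Sub-cluster 3 was led by Kcne3, Igfbp3 and Fabp4 together with proliferation genes such as Cenpf and Plk1. It had 57 Cyp26b1 UMIs in control (40.1 CPM) and 0 in H2CKO, with an interval up to 1.40 CPM. Weighted alike, the class levels were 82.5 and 49.8 CPM, a log2 difference of −0.68, which is not past 2-fold. In the H2CKO library the 526 endothelial-like cells with a GFP UMI had 45.6 CPM and the 219 without 4.69 CPM, a ratio of 9.72 (5.36 to 19.7). The cells with and without GFP were spread unevenly over the sub-clusters. GFP was found in 88.1% of H2CKO cells of sub-cluster 1, which held 322 of the 332 Cyp26b1 UMIs, and in 57.5% and 66.3% of those of sub-clusters 2 and 3. The thinned share of cells with Cyp26b1 was 22.0% in control and 9.46% in H2CKO, against 0.114% and 0.0421% in erythroid-like cells. In control cells thinned alike, 26.2% of those with Cyp26b1 also had Crabp2, against 7.05% of those without.

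With a stricter cell filter, or with only the cells of the authors' embedding, most Cyp26b1 UMIs fell in a cluster that stayed unnamed, outside the endothelial-like class. What remained of the class gave log2 differences of 0.075 and −0.544 for Cyp26b1 and −0.35 and −0.019 for Crabp2, so that neither was past 2-fold and Cyp26b1 changed sign with the stricter filter. In the unnamed cluster itself (233 control and 126 H2CKO cells with the stricter filter, 225 and 198 with the embedded cells) Cyp26b1 stood at 123 CPM in control and 101.0 CPM in H2CKO in the first setting, and at 153 and 116 CPM in the other. Joined with that cluster, a setting added after the data were seen, the class gave log2 differences of −1.26 and −1.41 for Cyp26b1 and −1.49 and −1.62 for Crabp2. The joined values carry the share of each part as well as the levels within it, and these were not separated.

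HAND2 belongs to the basic helix-loop-helix factors, which bind E-boxes, written CANNTG. The promoters of Aldh1a2 and Cyp26b1, the enzymes that make and remove retinoic acid and that were both lower in H2CKO, are printed from RefSeq (GRCm38.p6) up to the annotated start base, with each CANNTG in capitals. They lie at chr9:71215539-71215789 on the plus strand and at chr6:84593810-84594060 on the minus strand.
Aldh1a2: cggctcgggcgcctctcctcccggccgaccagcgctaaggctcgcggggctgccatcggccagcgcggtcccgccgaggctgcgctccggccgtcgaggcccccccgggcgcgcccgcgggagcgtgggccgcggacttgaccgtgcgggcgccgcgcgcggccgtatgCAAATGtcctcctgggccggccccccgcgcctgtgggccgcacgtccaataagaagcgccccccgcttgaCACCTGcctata
Cyp26b1: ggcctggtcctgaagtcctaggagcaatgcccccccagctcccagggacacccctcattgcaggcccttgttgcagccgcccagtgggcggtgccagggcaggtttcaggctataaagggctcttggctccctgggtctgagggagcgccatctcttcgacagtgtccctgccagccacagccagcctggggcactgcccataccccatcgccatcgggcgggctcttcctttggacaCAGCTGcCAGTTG
Each holds 2 matches, but 72.3% of all promoter windows hold at least 1, so the match sets neither gene apart. No binding data enter here.

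**Figure D4:**
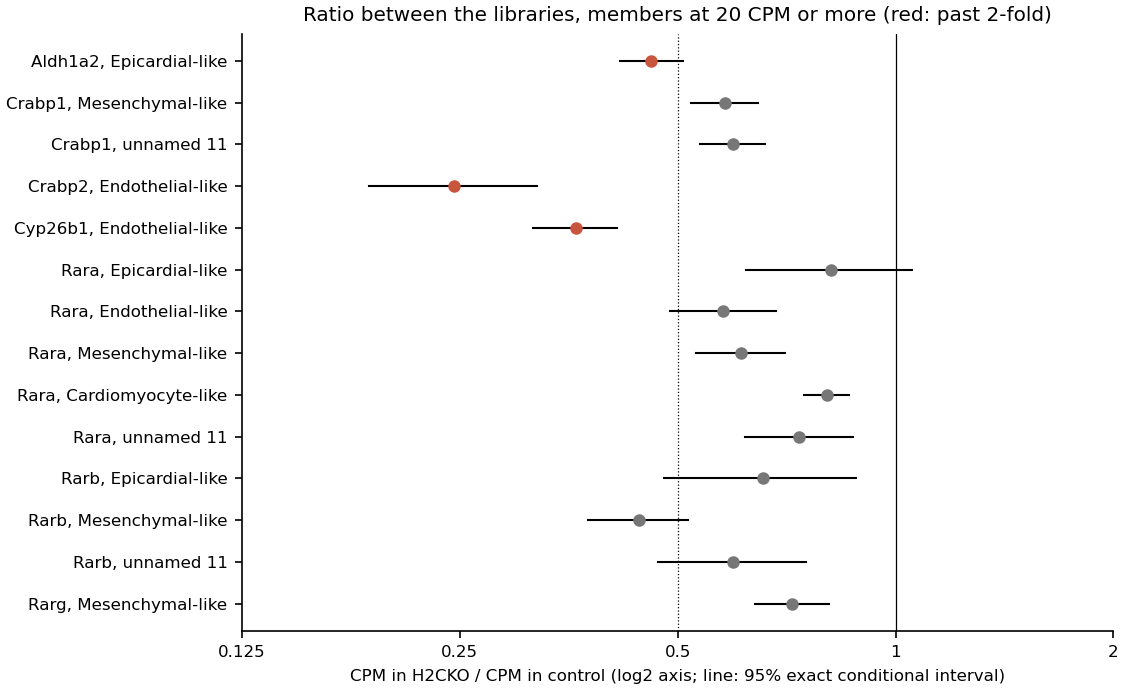
Ratio of CPM in H2CKO to CPM in control (log2 axis) for the 14 combinations of gene and class at 20 CPM or more, with 95% exact conditional intervals for counting error. All 14 points lie below 1, and the 3 in red, Aldh1a2, Crabp2 and Cyp26b1, are past 2-fold on the scale of CPM + 5.

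The receptors differed in where they were found. Rara (chromosome 11, 98927818 to 98974942) was the broadest. In the control it stood at 46.0 CPM in endothelial-like, 37.1 in mesenchymal-like, 35.5 in unnamed 11, 25.9 in cardiomyocyte-like and 24.5 CPM in epicardial-like cells, and in H2CKO at 26.6, 22.7, 26.1, 20.8 and 19.9 CPM. In the control order the intervals of mesenchymal-like and unnamed 11 cells overlap, as do those of cardiomyocyte-like and epicardial-like cells. The log2 differences ran from −0.69 in endothelial-like to −0.24 in epicardial-like cells, and none was past 2-fold. In cardiomyocyte-like cells Rara alone of the 9 genes reached 20 CPM, and 0.831% of all genes were past 2-fold lower and 0.235% past 2-fold higher.

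Rarb (chromosome 14, 16430839 to 16819156, minus strand) is known both as a receptor and as a target of retinoic acid. It was highest in mesenchymal-like cells, at 38.3 CPM (35.9 to 40.8) in control and 16.9 CPM (14.6 to 19.5) in H2CKO. The log2 difference of −0.98 lay just short of 2-fold on the scale used, while the ratio of the levels was 0.442 (0.376 to 0.517). In unnamed 11 Rarb stood at 22.6 and 13.5 CPM, in epicardial-like cells at 22.2 and 14.6 CPM and in cardiomyocyte-like cells at 14.5 and 8.01 CPM. The H2CKO intervals of unnamed 11 and epicardial-like cells overlapped that of mesenchymal-like cells. Endothelial-like cells had 6.29 and 4.37 CPM. In mesenchymal-like sub-clusters 1 and 2 the Rarb ratio was 0.350 (0.236 to 0.505) and 0.317 (0.205 to 0.474), and in 3 and 4 it was 0.681 and 0.565. It was 0.255 (0.119 to 0.512) in sub-cluster 5, which is led by haemoglobin genes and rests on 30 and 12 UMIs. In H2CKO cells of the class with GFP Rarb stood at 12.4 CPM and in those without at 19.6 CPM.

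Rarg (chromosome 15, 102234938 to 102257517) was mostly mesenchymal. It stood at 46.1 CPM (43.5 to 48.9) in control and 33.2 CPM (29.9 to 36.7) in H2CKO mesenchymal-like cells. The log2 difference was −0.42, and 80.1% of its control UMIs were in that class. Endothelial-like cells had 17.7 CPM (14.7 to 21.1) and 10.8 CPM (8.77 to 13.1), just under the level filter. Cardiomyocyte-like cells had 0.923 and 0.149 CPM. Unlike Crabp1, Rarg did not differ beyond counting error between mesenchymal-like H2CKO cells with and without GFP, at 34.5 and 32.4 CPM (ratio 1.06, 0.858 to 1.31).

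Over all 9 genes and 7 classes, 14 of 63 combinations reached the level filter, from 7 genes. All 14 were lower in H2CKO, 3 were past 2-fold and none was higher past 2-fold. That common direction was shared with genes at large, since 64.8% to 69.3% of all genes in the epicardial-, endothelial- and mesenchymal-like classes were also lower. Longer genes were lower: in mesenchymal-like cells the median log2 difference was 0.07 for the shortest and −0.66 for the longest of 20 bins of gene span, with a Spearman correlation of −0.56 over 6524 genes of the same 2 libraries. Rarb spans 388 kb, and minus the median of genes of like span its difference was −0.32 in mesenchymal-like, 0.16 in epicardial-like and −0.002 in unnamed 11 cells. Rara changed sign likewise in epicardial-like (0.19), cardiomyocyte-like (0.079) and unnamed 11 cells (0.014). Crabp2, which spans 4.71 kb, stayed at −1.65, Cyp26b1 at −1.09 and Crabp1 in mesenchymal-like cells at −0.76. After centring the ratios on each class's median gene, those past 2-fold lower and higher were 87 and 63 in epicardial-like, 159 and 121 in endothelial-like and 49 and 49 in mesenchymal-like cells, against 307 and 29, 464 and 51, and 214 and 25 uncentred.

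**Figure D5:**
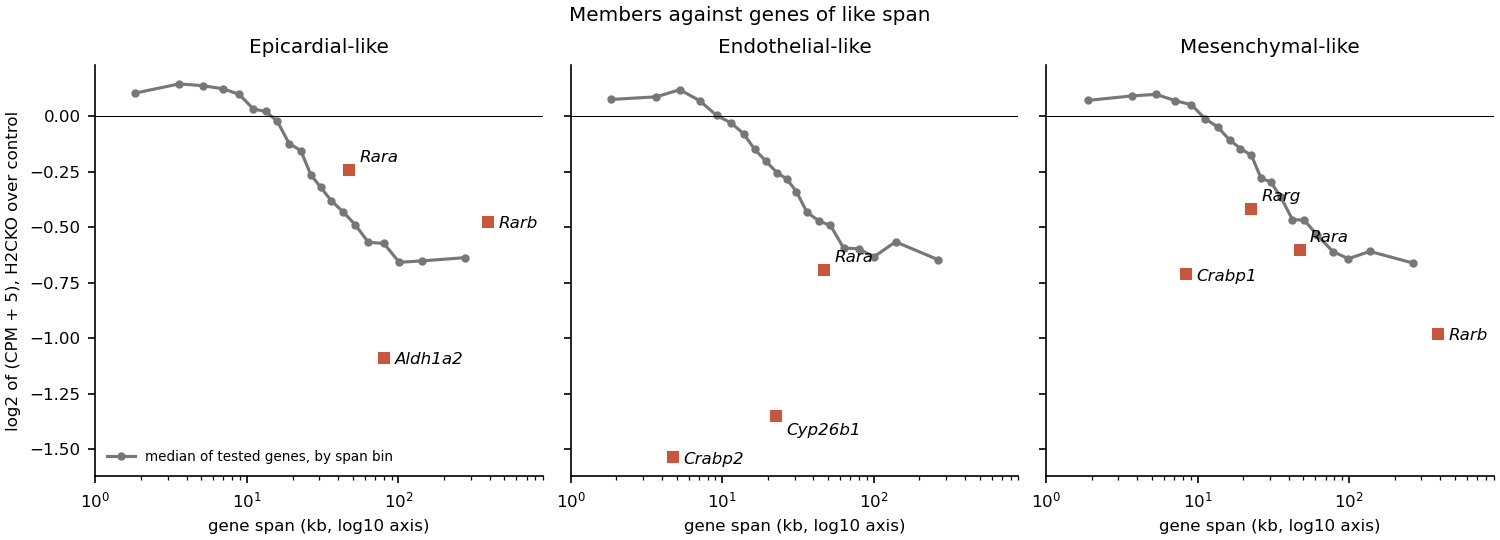
Log2 of (CPM + 5) in H2CKO over control (vertical) against gene span in kb (log10 axis) in 3 classes. Grey points join the medians of 20 bins of all genes at 20 CPM or more, and red squares are the retinoid genes. Minus genes of like span, Aldh1a2 lies at −0.52, Cyp26b1 at −1.09 and Crabp2 at −1.65, while Rara and Rarb in epicardial-like cells lie at 0.19 and 0.16.

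Other genes of the pathway were taken as lists. Of 22 genes of retinoid metabolism and transport, 6 reached the level filter in epicardial-like cells, and none was past 2-fold either way, with a median of 0.02 against −0.21 for all genes. The fatty acid and retinoic acid carrier Fabp5 stood there at 639 CPM in control and 675 CPM in H2CKO, and the dehydrogenase Adh5 at 124 and 151 CPM. Aldh1a1, another retinaldehyde dehydrogenase, stood at 50.4 and 40.6 CPM. In endothelial-like cells 5 of the 22 passed the filter and none was past 2-fold, with Fabp5 at 2136 and 1440 CPM (−0.57) and Adh5 at 141 and 167 CPM. Cyp26a1 and Cyp26c1, the relatives of Cyp26b1, had at most 4 UMIs per library in epicardial-like, endothelial-like, cardiomyocyte-like and unnamed 11 cells. In mesenchymal-like cells Cyp26a1 had 3 UMIs in control (0.124 CPM) and 11 in H2CKO (0.979 CPM), with a ratio interval of 2.09 to 44.2, and Cyp26c1 had 0.

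Of 14 partner receptors and coregulators 10 passed in epicardial-like and 10 in endothelial-like cells, with medians of −0.68 and −0.65 beside −0.21 and −0.27 for all genes. Past 2-fold lower were 1 of 10 and 2 of 10, beside 4.87% and 7.1% of all genes, and none was past 2-fold higher. The coactivator Ep300 was past 2-fold lower in epicardial-like cells (59.7 and 22.97 CPM, −1.21). Tbl1xr1, a part of corepressor complexes, was past 2-fold lower in endothelial-like cells (48.4 and 18.8 CPM). Ncor1, the most abundant of the list, stood at −0.48 in both classes.

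Of 21 genes known to respond to retinoic acid, 8 passed in epicardial-like, 7 in endothelial-like and 6 in mesenchymal-like cells. Their medians of −0.44, −0.75 and −0.59 stood beside −0.21, −0.27 and −0.23 for all genes. Past 2-fold lower were 1 of 8, 2 of 7 and 1 of 6, beside 4.87%, 7.1% and 3.28% of all genes. Past 2-fold higher were 0, 2 and 0, beside 0.46%, 0.78% and 0.383%. In cardiomyocyte-like and unnamed 11 cells 2 of 7 and 1 of 6 were past 2-fold lower, beside 0.831% and 1.89% of all genes. Igf2, a growth factor that the epicardium gives to the myocardium, was past 2-fold lower in the epicardial-like class (1560 and 578 CPM, −1.42). It was also lower past 2-fold in the endothelial-like (−1.90), mesenchymal-like (−1.70), cardiomyocyte-like (−1.21) and unnamed 11 cells (−1.003). In endothelial-like cells the cardiac factor Gata4 was past 2-fold lower (179 and 81.0 CPM), while Nr2f2, a marker of venous identity, and the transglutaminase Tgm2 were past 2-fold higher (61.0 and 136 CPM, and 13.3 and 37.5 CPM). Nr2f2 also leads endothelial-like sub-cluster 2, which held 22.4% of control and 38.5% of H2CKO cells of the class. Meis2 was lower and not past 2-fold in each of 5 classes, from −0.75 in endothelial-like to −0.27 in cardiomyocyte-like cells.

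The genes whose levels ran most like each retinoid gene were taken over 12 profiles (6 named classes in 2 libraries) among 8349 genes, by Pearson r of log2(CPM + 5). The profiles share libraries and depth, and most of the spread is that between cell classes, so r is a description. For Aldh1a2 they were Tmem151a (0.989), Prokr2 and Krt7, for Cyp26b1 Wnt9b (0.999), Pi16 and Stmn2, and for Crabp2 Jam2 (0.982), Olfml2a and Eln. For Crabp1 they were Prrx1 (0.965), Epha3 and Shisa2, for Rarg Gata3 (0.982), Igfbp7 and Msx1, for Rarb Plod2 (0.976), Ptpn21 and Hs6st2, and for Rara Rnf217 (0.989), Fam222b and Auts2. Rbp4 and Stra6 did not reach 20 CPM in any profile and have no entry.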

How the data were processed

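Hearts at embryonic day 11.5 were dissociated with TrypLE and sequenced with 10x 3′ chemistry, per the labels' protocols. The authors deposited UMI counts per gene and barcode, and embedding coordinates, scores without a unit, used here only to mark the cells they embedded (5408 control, 6232 H2CKO). Cell Ranger 5.0.1, Seurat 4 and GRCm38.p6 are named in the submitters' processing notes. How barcodes were filtered before deposit is not given in the sources used here.

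Barcodes with under 500 genes or over 10% mitochondrial UMIs were dropped, and the 6% with the highest Scrublet scores per library were left out, since automatic calling marked 1048 control and 0 H2CKO cells. Cells of both libraries were clustered with scanpy 1.11.5 and leidenalg 0.10.2 (2000 variable genes, 30 components, resolution 1) without retinoid genes, and named from marker lists. Genes were scaled within each library, and the neighbours of a cell were its 15 nearest cells in each library. This step ties cells of the libraries together in the clustering. A class rebuilt in this way can differ from the study's own. Counts were summed per class and library and scaled to CPM, with a pseudocount of 5 CPM for log2 ratios. Intervals came from scipy 1.17.1. The ratio script was tested on simulated data. Of the features, 22285 matched GENCODE vM21, which gave spans and coordinates, and 16 were renamed.

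The members and lists were chosen with earlier results of these data known. Named genes were all 9 members, list genes past 2-fold or among the 3 with most UMIs, and the 3 genes most like each member. Some list genes that this rule takes are not reported here. The list genes named follow it, except Aldh1a1, Cyp26a1, Cyp26c1, and Upk3b, which were picked after their values were seen. Promoters came from RefSeq, where 8 of the 9 genes matched. Protein sequences were not used here. Alternatives changed the doublet step, cell filter, cells, resolution, naming, clustering genes, depth, centring, pseudocount, level filter and gene span.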

Additional observations from a re-analysis of the deposited data

Results flagged for a closer look

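Cyp26b1 in white blood cell-like cells differed in the opposite direction to that in 2 other classes. It had 0 UMIs in 80 control cells and 9 UMIs in 110 H2CKO cells (5.00 CPM, 2.29 to 9.49), so that the ratio has a lower bound of 1.56. The 9 UMIs were in 1.82% of the H2CKO cells. The 12 endothelial markers summed to 171 CPM in control and 260.0 CPM in H2CKO white blood cell-like cells, with none at 0, and GFP stood at 14.0 and 51.1 CPM. Their part in the Cyp26b1 value was not tested. The difference between classes was not tested, since there is 1 library per genotype.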

How the results depend on the processing

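Of 141 recomputed log2 ratios 124 kept their direction and their side of 2-fold, 11 were no longer past 2-fold, 1 became so and 5 changed sign. Aldh1a2 in epicardial-like cells was −0.665 with the stricter filter (1500 genes, 5% mitochondrial), −0.675 with the embedded cells, −0.822 with cells named by their own markers, −0.962 when thinned, −0.884 when centred, −0.516 minus genes of like span and −0.873 with sub-clusters weighted alike. In the first 5 of these settings the epicardial-like count of retinoid genes past 2-fold lower was 0 in place of 1. In endothelial-like cells, the stricter filter gave −0.35 for Crabp2 and 0.075 for Cyp26b1, the embedded cells −0.019 and −0.544, and alike weights −0.676 for Cyp26b1. The class count there was 0 in place of 2 with the stricter filter, the embedded cells and a filter of 100 CPM. In the first pair of these settings most Cyp26b1 UMIs lay in an unnamed cluster. Minus genes of like span, Rara was 0.189 in epicardial-like, 0.079 in cardiomyocyte-like and 0.014 in unnamed 11 cells, and Rarb 0.161 in epicardial-like cells. The mesenchymal-like count was 1 in place of 0 with a pseudocount of 1 (Rarb −1.13) and with no level filter, and the cardiomyocyte-like count 1 in place of 0 at resolution 0.5 and with no level filter. The cause of these differences was not tested.

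The share of Aldh1a2 UMIs in epicardial-like cells was, in the control, 90.4% with no doublet removal, 87.0% with the stricter filter, 82.6% with the embedded cells and 92.1% when thinned, and 97.0% in thinned H2CKO cells. Genes past 2-fold lower numbered 541 in epicardial-like, 710 in endothelial-like, 427 in mesenchymal-like and 76 in cardiomyocyte-like cells with a pseudocount of 1, and 89, 149, 77 and 14 with a filter of 100 CPM. Values for unnamed 11 were recomputed only in settings that keep the clusters. No paired analysis was possible because each genotype has 1 library, and no library could be left out. Few UMIs limit the precision for Stra6, with 24 in control and 36 in H2CKO kept cells.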
